A study of Homo sapiens with 4 samples.

Results

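The genes of the mitochondrial ribosome were taken from the deposited count table by their symbols, as those beginning with MRPL or MRPS and a digit, with pseudogenes left out. The rule took 77 of the 23340 genes used. Of these, 47 are large-subunit genes (MRPL), 29 are small-subunit genes (MRPS) and 1, MRPL23-AS1, is a non-coding RNA gene, listed at 0 counts in all 4 libraries and set aside. Of the 76 protein-coding members, 74 passed the filter on low counts, 47 of the large and 27 of the small subunit. MRPS18B and MRPS24 did not.

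Poly-A+ RNA was sequenced from A549 cells, which derive from a human lung carcinoma of epithelial type, in 4 libraries. WT 1 and WT 2 are WT cells, and clone 4 and clone 5, numbered as in the sample names, are NOCT-KO cells. NOCT-KO cells were made with a lentivirus, selected with puromycin and cloned by limiting dilution, so that each clone is 1 line and here 1 library. No source used here states whether WT cells went through these steps, so knockout and cloning cannot be told apart. Nor is it stated that WT 1 and WT 2 are separate cultures, and p-values measure only the spread between these libraries, which may be technical. In bulk RNA, fewer cells expressing a gene and less RNA per cell cannot be told apart.

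Mitochondrial ribosomes translate the few mRNAs of the mitochondrial genome, all of which encode membrane subunits of the respiratory chain or of ATP synthase. Their rRNAs come from the mitochondrial genome, but every protein of both subunits is encoded in the nucleus, made in the cytosol and imported. The small subunit binds the mRNA and decodes it, and the large subunit carries the peptidyl transferase centre and the exit tunnel. The comparison asked whether mRNAs of these proteins differ between WT and NOCT-KO cells, where NOCT is the gene of Nocturnin, a circadian protein.

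Libraries held 36873556 to 41963070 counts, and 13143 genes were tested. Values below are CPM, which are counts scaled to a common library size after TMM, and changes are log2 ratios with the standard error (SE) and the adjusted p of edgeR's quasi-likelihood test over all genes tested. Of 11 genes expected in A549 cells, 9 were at 1 CPM or more in every library, whereas KRT19, a keratin, was listed at 0 and EPCAM, an epithelial adhesion protein, reached at most 0.166 CPM. Of 11 markers of fibroblasts, endothelium and blood, 8 were at 0 in all libraries and 1 reached 1 CPM in every library, CD68, which is also found in lysosomes of many cells. The summed level of these 11 markers was 12.6 CPM in both WT libraries and 14 to 21.3 CPM in the clones. NOCT itself, listed under its older symbol CCRN4L, had 20.8 CPM (WT 1), 20.1 CPM (WT 2), 29.3 CPM (clone 4) and 15.6 CPM (clone 5). These counts do not show the edited bases and check neither the knockout nor the labels.

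Most mRNAs of mitochondrial ribosomal proteins stood slightly higher in WT libraries than in the clones, and none passed the test alone. Of the 74 members tested, 62 had a log2 ratio of WT over NOCT-KO above 0 and 12 below 0, with a median of 0.12, which is a 1.08-fold difference. Among all 13143 genes tested, 49.9% were positive and the median was -0.00027. edgeR called 0 members at an adjusted p under 0.05, as it called 0% of all genes, and 0 members had an unadjusted p under 0.05, against 4.21% of all genes (553). limma-voom and DESeq2 also called 0 members. The smallest adjusted p of a member was 0.971. In 28 of the 74 members (37.8%) both WT libraries stood above both clones, against 17.9% of all genes, and in 2 members (2.7%), MRPL2 and MRPL53, both WT libraries stood below both clones, against 16.4% of all genes.

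The medians of the large and small subunit lay close together, and their difference was not tested. Of 47 large-subunit genes, 38 were higher in WT and 9 were lower, with a median log2 ratio of 0.11. Of 27 small-subunit genes, 24 were higher and 3 were lower, with a median of 0.13. Groups did not overlap, with WT above, in 19 of 47 large-subunit genes (40.4%) and 9 of 27 small-subunit genes (33.3%). The WT libraries were not equal for the small subunit. Between WT 1 and WT 2 the median log2 ratio was 0.12 for small-subunit genes, higher in WT 1, and 0.026 for large-subunit genes, so that for the small subunit it was about as large as the median of WT over NOCT-KO. Without WT 1 the small-subunit median of WT over NOCT-KO was 0.059 and the large-subunit median 0.088, with 55 members higher and 19 lower. Without clone 5 the medians were 0.08 and 0.058, with 53 members higher and 21 lower. Summed over all members, large-subunit mRNAs made up 2808 CPM (WT 1), 2770 CPM (WT 2), 2699 CPM (clone 4) and 2628 CPM (clone 5). The small-subunit sum was 1813 CPM (WT 1), 1791 CPM (WT 2), 1679 CPM (clone 4) and 1728 CPM (clone 5). Both sums were higher in each WT library than in either clone. A sum gives most weight to the highest genes. MRPS35 alone had 374 CPM (WT 1), 372 CPM (WT 2), 313 CPM (clone 4) and 381 CPM (clone 5).

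**Figure D1:**
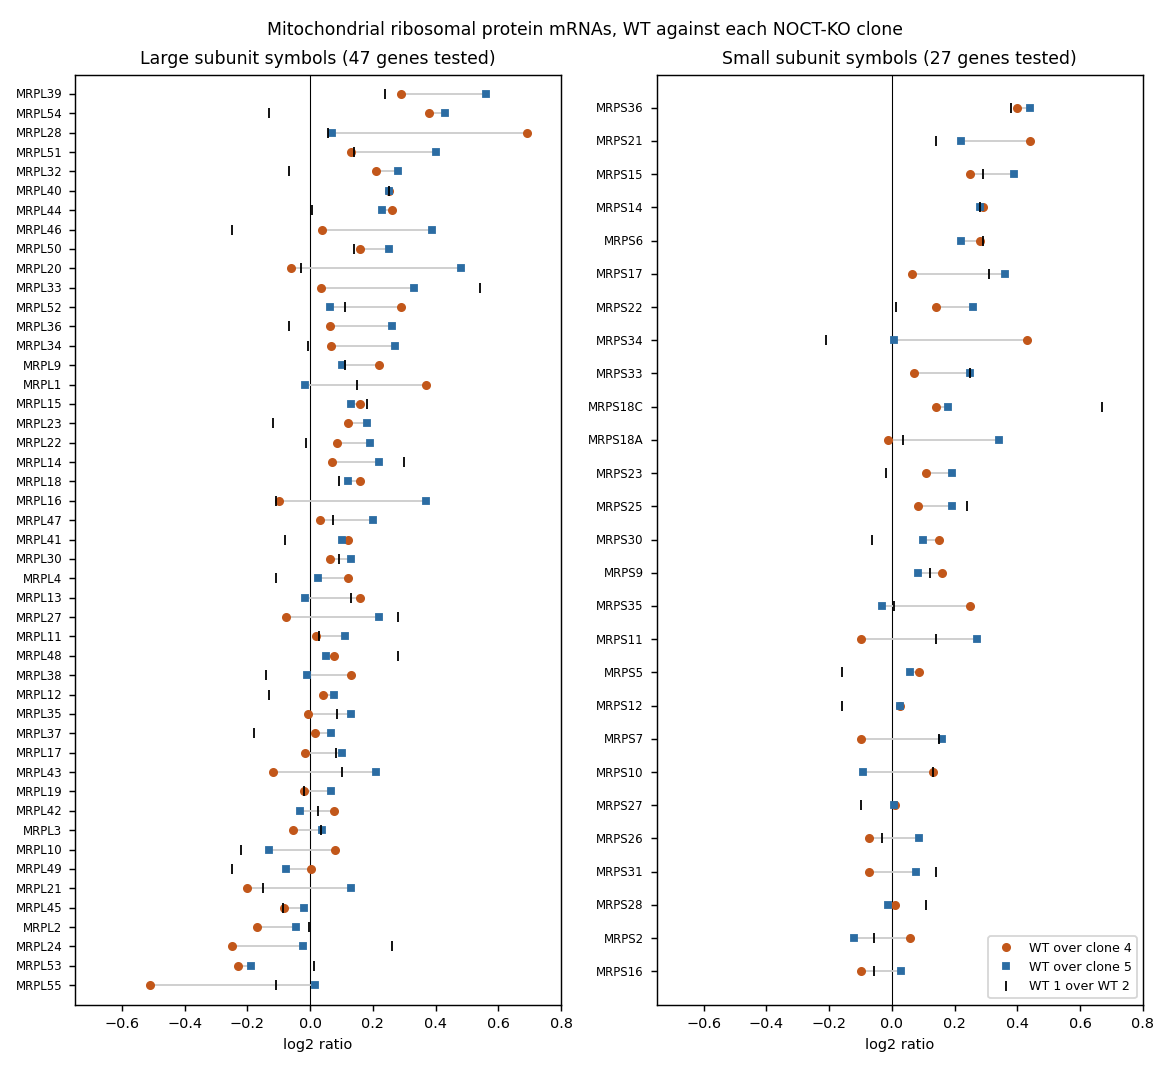
Log2 ratio of WT over clone 4 (circles) and WT over clone 5 (squares) for each member tested, sorted by WT over NOCT-KO, with the log2 ratio of WT 1 over WT 2 as a vertical tick. Both clones are compared with the same WT libraries. Most points lie right of 0 in both panels, at a size similar to the ticks, and MRPL28, MRPL20, MRPL55 and MRPL16 are split most widely between the clones.

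The genes with the smallest p in the comparison of WT with NOCT-KO were MRPL44, MRPS21, MRPL39 and MRPS36. MRPL44, a large-subunit protein with a fold of the ribonuclease III family, stood at 49.9 CPM (WT 1), 49.7 CPM (WT 2), 41.7 CPM (clone 4) and 42.5 CPM (clone 5). Its WT libraries nearly coincided and its clones nearly coincided, and the log2 ratio of WT over NOCT-KO was 0.24 (SE 0.10, edgeR adjusted p = 0.971). MRPS21, the counterpart of bacterial ribosomal protein S21 in the small subunit, had 42 CPM (WT 1), 38.2 CPM (WT 2), 29.5 CPM (clone 4) and 34.4 CPM (clone 5). The groups did not overlap, with a log2 ratio of 0.33 (SE 0.13, edgeR adjusted p = 0.971). MRPL39, a large-subunit protein related to the editing part of threonyl-tRNA synthetases, had 23.0 CPM (WT 1), 19.5 CPM (WT 2), 17.4 CPM (clone 4) and 14.4 CPM (clone 5), a log2 ratio of 0.42 (SE 0.17, edgeR adjusted p = 0.971). Here the gap between WT 1 and WT 2 was wider than the gap between WT 2 and clone 4. MRPS36 is named for the small subunit, but later work placed its product in the 2-oxoglutarate dehydrogenase complex of the citric acid cycle. It had 18.1 CPM (WT 1), 13.9 CPM (WT 2), 12.1 CPM (clone 4) and 11.8 CPM (clone 5), a log2 ratio of 0.42 (SE 0.18, edgeR adjusted p = 0.971), and its WT libraries differed by a log2 ratio of 0.38.

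In the other direction MRPL53, a large-subunit protein found in mitochondria but not in bacteria, had 14.8 CPM (WT 1), 14.7 CPM (WT 2), 17.4 CPM (clone 4) and 16.8 CPM (clone 5). Both clones stood above both WT libraries, with a log2 ratio of WT over NOCT-KO of -0.21 (SE 0.14, edgeR adjusted p = 0.971). MRPL53 shares 72.8% of its exon bases with CCDC142 on the same strand, so that reads of these genes cannot be told apart there. MRPL2, counterpart of the bacterial protein L2 at the peptidyl transferase centre, was also higher in both clones, at 7.68 CPM (WT 1), 7.70 CPM (WT 2), 8.65 CPM (clone 4) and 7.94 CPM (clone 5). In clone 5 it exceeded WT by little. MRPS16, counterpart of bacterial S16, had the smallest p of the 3 small-subunit genes that were lower in WT, and its 4 libraries overlapped between the groups, at 200 CPM (WT 1), 208 CPM (WT 2), 218 CPM (clone 4) and 200 CPM (clone 5).

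The promoters of the gene with the smallest p in each direction in each subunit are shown with matches to known motifs, a feature that the symbol rule did not use. Each window runs from 250 bases before to 50 bases after the start in RefSeq on GRCh38.p14, a later build than the hg19 of the counts, and is written 5′ to 3′ on the strand of the gene. Capitals mark matches on either strand to GCGCANGCG, the core bound by NRF1, a regulator of nuclear genes for mitochondrial proteins, or to CCGGAAG, the core bound by ETS factors such as GABP. The windows are chr2:223957213-223957512 on the plus strand for MRPL44, chr2:74472631-74472930 on the minus strand for MRPL53, chr1:150293611-150293910 on the plus strand for MRPS21 and chr10:73252595-73252894 on the minus strand for MRPS16.
MRPL44: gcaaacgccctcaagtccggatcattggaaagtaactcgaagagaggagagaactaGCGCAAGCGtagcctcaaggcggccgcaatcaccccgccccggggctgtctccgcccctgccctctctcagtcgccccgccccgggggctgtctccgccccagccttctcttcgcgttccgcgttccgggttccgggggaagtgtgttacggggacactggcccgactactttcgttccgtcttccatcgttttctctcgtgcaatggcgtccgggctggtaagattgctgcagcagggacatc
MRPL53: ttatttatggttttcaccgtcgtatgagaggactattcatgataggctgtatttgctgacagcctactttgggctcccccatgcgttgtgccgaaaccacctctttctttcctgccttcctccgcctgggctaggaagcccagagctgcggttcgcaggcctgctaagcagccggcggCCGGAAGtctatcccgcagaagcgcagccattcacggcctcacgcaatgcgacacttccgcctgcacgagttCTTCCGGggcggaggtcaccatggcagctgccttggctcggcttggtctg
MRPS21: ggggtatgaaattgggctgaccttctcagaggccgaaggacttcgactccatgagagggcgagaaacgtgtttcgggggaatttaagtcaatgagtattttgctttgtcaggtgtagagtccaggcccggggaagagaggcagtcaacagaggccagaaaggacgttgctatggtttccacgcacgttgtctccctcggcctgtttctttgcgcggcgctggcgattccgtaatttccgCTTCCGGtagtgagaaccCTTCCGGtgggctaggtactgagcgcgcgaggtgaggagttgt
MRPS16: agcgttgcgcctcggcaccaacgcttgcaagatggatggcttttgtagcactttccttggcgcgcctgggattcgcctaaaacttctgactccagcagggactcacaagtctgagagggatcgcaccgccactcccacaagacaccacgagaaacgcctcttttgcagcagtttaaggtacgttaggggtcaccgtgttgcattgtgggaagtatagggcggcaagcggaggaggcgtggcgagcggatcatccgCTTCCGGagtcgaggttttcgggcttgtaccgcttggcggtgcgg

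The MRPL44 window held 1 match to the NRF1 core, with its first base at -194 from the start. MRPS21 held 2 matches to the ETS core at -11 and 8, MRPL53 held 2 at -72 and 1, and MRPS16 held 1 at 6. MRPS16 hardly differed between the groups, with a log2 ratio of WT over NOCT-KO of -0.034 (SE 0.091). A link between these motifs and the direction of change was not tested. Over the members, 67 of 76 genes matched RefSeq promoters, with 83 windows. The ETS core was in 38.6% of these windows, against 16.6% of the 14600 windows of genes tested here and 10.3% of all 35116 windows. AANATGGCG, the core of YY1, was in 21.7%, against 6.02% and 3.19%. The NRF1 core was in 16.9%, against 12.7% and 7.52%. By subunit it was in 11 of 50 large-subunit windows (22%) and 3 of 33 small-subunit windows (9.09%). The ETS core was in 36% of large-subunit and 42.4% of small-subunit windows, and the YY1 core in 22% and 21.2%. Some genes have more than 1 window, and differences between the subunits were not tested. The end of the ETS core can overlap the start of the YY1 core, and any of the 3 was in 62.7% of member windows, against 30.4% of windows of genes tested. A match is a string of letters and not a bound site.

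Compared with clone 4 alone, 54 of 74 members were higher in WT and 20 were lower, with a median log2 ratio of 0.072. edgeR called 3 members, MRPL28, MRPS21 and MRPL1, all higher in WT, against 11.4% of all genes called in either direction. The share of members called, 3 of 74, was below this background. With no filter on low counts 0 of the 3 passed, and with DESeq2 only MRPL28 did. With the clone 5 library left out of the fit, MRPL28 and MRPS21 passed and MRPL1 did not. This fit takes its spread from the WT pair and assumes that the single library of a clone varies likewise. Clone 5, compared with the same WT libraries, had 60 members higher in WT and 14 lower, with a median of 0.12 and 0 called, against 3.51% of all genes. The share of members higher in WT was 73% for clone 4 and 81.1% for clone 5, against 52% and 50.8% of all genes. The large-subunit median was 0.065 for clone 4 and 0.12 for clone 5, and the small-subunit median was 0.087 and 0.16.

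MRPL28 fell in clone 4. This gene encodes a large-subunit protein with a bacterial counterpart, and on hg19 it lies on chromosome 16 from 416969 to 421289. Its level was 25.4 CPM (WT 1), 24.4 CPM (WT 2), 15.4 CPM (clone 4) and 23.8 CPM (clone 5). Clone 4 stood apart from the other 3 libraries. The log2 ratio of WT over clone 4 was 0.69 (SE 0.15, edgeR adjusted p = 0.00774), and of WT over clone 5 it was 0.07 (SE 0.14, edgeR adjusted p = 0.87). MRPS34, a small-subunit protein without a bacterial counterpart, lies on the same chromosome from 1821891 to 1823151. It had 36.9 CPM (WT 1), 42.8 CPM (WT 2), 29.5 CPM (clone 4) and 39.7 CPM (clone 5), with a log2 ratio of WT over clone 4 of 0.43 (SE 0.13, edgeR adjusted p = 0.0524). MRPS34 shares 31.2% of its exon bases with EME2 on the opposite strand.

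Most genes around MRPL28 and MRPS34 were also lower in clone 4. Of 132 tested genes whose start lies within 5 Mb of MRPL28, which are also those around MRPS34, 94.7% were higher in WT than in clone 4, with a median log2 ratio of 0.46, and 50 were called by edgeR. The same 132 genes had a median of -0.11 for WT over clone 5. Over the whole of chromosome 16, members left out, 578 genes had a median of 0.44 for WT over clone 4, 93.4% were higher in WT and 228 were called. Less the median of these neighbours, MRPL28 had a remainder of 0.24 for WT over clone 4 and MRPS34 of -0.025. The part of the neighbourhood in the change of either gene was not tested. Without the members on chromosome 16, 52 members were higher in WT than in clone 4 and 20 lower, with a median of 0.069, and for WT over NOCT-KO 60 were higher and 12 lower.

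MRPL55, a large-subunit protein without a bacterial counterpart, showed the opposite pattern. On hg19 it lies on chromosome 1 from 228294380 to 228297013, and its level was 12.9 CPM (WT 1), 13.9 CPM (WT 2), 19.1 CPM (clone 4) and 13.3 CPM (clone 5). The clone 4 library alone was high. The log2 ratio of WT over clone 4 was -0.51 (SE 0.16, edgeR adjusted p = 0.0581), and of WT over clone 5 it was 0.014. Of its 58 tested neighbours within 5 Mb, 17.2% were higher in WT than in clone 4, with a median of -0.31, and 25 were called. For WT over clone 5 the median of these neighbours was 0.061.

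**Figure D2:**
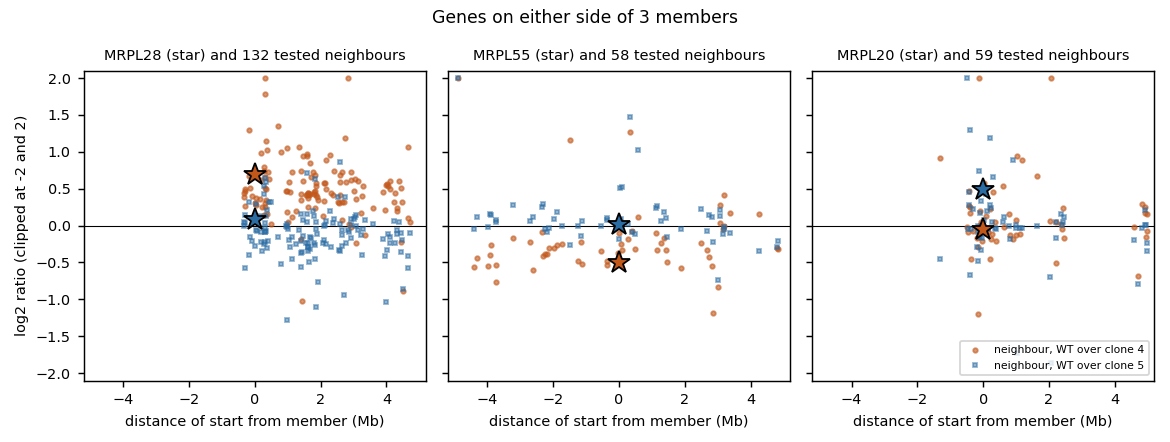
Log2 ratio of WT over clone 4 (circles) and over clone 5 (squares) for tested genes within 5 Mb of MRPL28, MRPL55 and MRPL20, against the distance between gene starts in Mb, with each member as a star. Around MRPL28 the circles lie mostly above 0 (median 0.46) and around MRPL55 mostly below (median -0.31), whereas around MRPL20 both sets lie about 0.

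MRPS21 and MRPL1 also passed the test against clone 4, and the medians of their neighbours were near 0. MRPS21, whose levels are given above, had a log2 ratio of WT over clone 4 of 0.44 (SE 0.13, edgeR adjusted p = 0.04), and the median of its 129 neighbours was 0.0011. Against clone 5 its log2 ratio was 0.22 (SE 0.13, edgeR adjusted p = 0.449). MRPL1, a protein of the mobile stalk next to the exit site for tRNA in bacteria, had 70.7 CPM (WT 1), 63.9 CPM (WT 2), 52.2 CPM (clone 4) and 68.1 CPM (clone 5). Clone 5 lay between the WT libraries. Its log2 ratio of WT over clone 4 was 0.37 (SE 0.11, edgeR adjusted p = 0.0489), and the median of its 36 neighbours was 0.025. MRPS35, a small-subunit protein without a bacterial counterpart, was also lowest in clone 4, at 374 CPM (WT 1), 372 CPM (WT 2), 313 CPM (clone 4) and 381 CPM (clone 5), with a log2 ratio of 0.25 (SE 0.081, edgeR adjusted p = 0.0608).

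Against clone 5 the 4 members with the smallest p were of the large subunit, which holds 47 of the 74 members tested, and none was called. In edgeR's test an unadjusted p under 0.05 was reached by 6 of 47 large-subunit and 3 of 27 small-subunit genes. Among all genes tested, 2056 of 13143 reached it. MRPL20, counterpart of a bacterial protein needed early in large-subunit assembly, had 37.7 CPM (WT 1), 38.5 CPM (WT 2), 39.8 CPM (clone 4) and 27.4 CPM (clone 5). The other 3 libraries lay close together above clone 5. The log2 ratio of WT over clone 5 was 0.48 (SE 0.13, edgeR adjusted p = 0.053), and its 59 neighbours had a median of -0.0092. MRPL51, a large-subunit protein without a bacterial counterpart, had 59.3 CPM (WT 1), 53.7 CPM (WT 2), 51.8 CPM (clone 4) and 42.8 CPM (clone 5), a log2 ratio of WT over clone 5 of 0.40 (SE 0.12, edgeR adjusted p = 0.0828). Clone 4 was close to WT 2. MRPL51 shares 27.6% of its exon bases with NCAPD2 on the opposite strand. MRPL39 had a log2 ratio of WT over clone 5 of 0.56 (SE 0.17, edgeR adjusted p = 0.0936). MRPL16, counterpart of bacterial L16 near the peptidyl transferase centre, stood at 32.8 CPM (WT 1), 35.3 CPM (WT 2), 36.4 CPM (clone 4) and 26.3 CPM (clone 5), a log2 ratio of 0.37 (SE 0.13, edgeR adjusted p = 0.17).

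Between the clones, 2 members passed the test, against 13.1% of all genes. MRPL20 was higher in clone 4 than in clone 5 by a log2 ratio of 0.54 (SE 0.14, edgeR adjusted p = 0.0218), and MRPL28 was lower in clone 4, with a log2 ratio of -0.62 (SE 0.17, edgeR adjusted p = 0.0249). With no filter on low counts or with DESeq2, 0 members passed between the clones. Members differed between the clones about as much as between the WT libraries. For the 73 members at 5 CPM or more on average, the median absolute log2 ratio was 0.13 between clones and 0.12 between WT libraries, and 0 members differed between clones by more than 1. For the 10049 genes of that level these medians were 0.17 and 0.10, and 340 genes (3.38%) differed between clones by more than 1. The 73 cytosolic ribosomal protein genes of that level resembled the members, with medians of 0.14 and 0.14 and 0 genes over 1. These differences between lists were not tested.

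**Figure D3:**
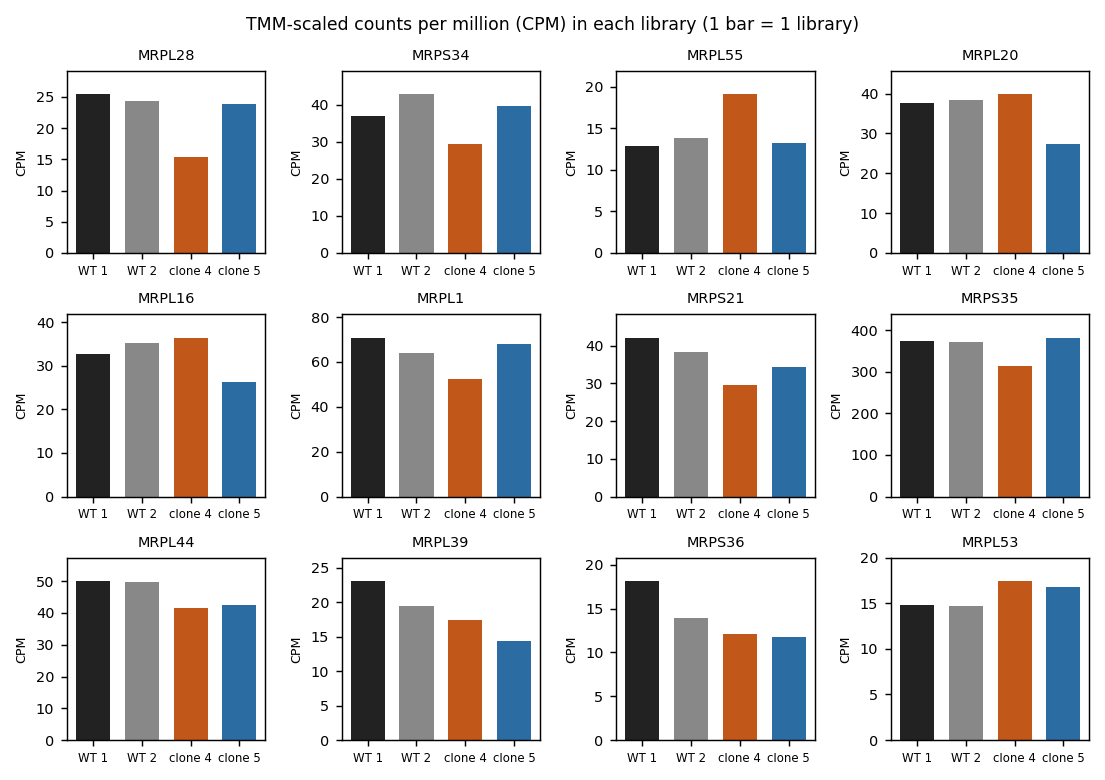
CPM of 12 members in WT 1, WT 2, clone 4 and clone 5, with 1 bar a library and each axis starting at 0. MRPL28 and MRPS34 are lowest and MRPL55 is highest in clone 4, MRPL20 and MRPL16 are lowest in clone 5, and MRPL44 is lower and MRPL53 higher in both clones than in both WT libraries.

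Genes for mitochondrial ribosomal proteins under other symbols varied in direction. In the large subunit, ICT1, which can release stalled peptides, had a log2 ratio of WT over NOCT-KO of 0.27, MRP63 had 0.19, and GADD45GIP1, which sits at the exit tunnel, had -0.15. In the small subunit, CHCHD1 had 0.21, PTCD3, a pentatricopeptide protein, 0.18, DAP3, a GTP-binding protein, 0.047, and AURKAIP1 -0.19. None of these 7 passed the test against WT or between clones (smallest edgeR adjusted p of 0.106, for ICT1 in WT over clone 5).

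Of 26 assembly factors tested, 16 were higher in WT and 10 were lower, with a median log2 ratio of 0.053. METTL17, a factor of small-subunit assembly, had 51.0 CPM (WT 1), 45.9 CPM (WT 2), 39.9 CPM (clone 4) and 41.5 CPM (clone 5), a log2 ratio of 0.25 (SE 0.11, edgeR adjusted p = 0.971). MRM1, which methylates the large-subunit rRNA, had a log2 ratio of 0.29 and YBEY, an endoribonuclease, of -0.23. DDX28, a helicase of large-subunit assembly encoded on chromosome 16, fell in clone 4, with a log2 ratio of WT over clone 4 of 0.60 (SE 0.15, edgeR adjusted p = 0.017). No other assembly factor was called in that comparison. With no filter on low counts or with DESeq2, DDX28 did not pass (adjusted p = 0.103 from edgeR and 0.0801 from DESeq2).

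Of 16 translation factors tested, 15 were higher in WT and 1, MTRF1L, was lower, with a median of 0.10. TUFM, the elongation factor that brings aminoacyl-tRNA to the ribosome, is also on chromosome 16 and fell in clone 4, from 141 CPM in WT 1 and 148 CPM in WT 2 to 108 CPM in clone 4, while clone 5 had 158 CPM. Its log2 ratio of WT over clone 4 was 0.42 (SE 0.10, edgeR adjusted p = 0.0122). SLIRP, a partner of LRPPRC in keeping mitochondrial mRNAs stable, had a log2 ratio of WT over clone 5 of 0.51 (edgeR adjusted p = 0.0614). For the translation factors the median of WT 1 over WT 2 was 0.10, as large as that of WT over NOCT-KO.

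Transcription factors and coactivators of these genes showed no common direction. Of 9 tested, 4 were higher and 5 lower in WT, with a median of -0.011. PPRC1, a coactivator of NRF1, fell in clone 4, with 198 CPM (WT 1), 202 CPM (WT 2), 150 CPM (clone 4) and 219 CPM (clone 5) (log2 ratio of WT over clone 4 of 0.41, SE 0.092, edgeR adjusted p = 0.00886). With no filter on low counts, TUFM and PPRC1 did not pass (edgeR adjusted p = 0.0991 and 0.0841).

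Most mRNAs of the cytosolic ribosome, which makes the mitochondrial ribosomal proteins themselves, were higher in WT too. Of 79 cytosolic ribosomal protein genes tested, 69 were higher in WT and 10 were lower, with a median of 0.15. Their median was 0.20 for WT over clone 4, with 11 called, and 0.10 for WT over clone 5, with 3 called. All 11 and all 3 of these genes were higher in WT. Genes on chromosome 16 were not left out of this list. RPS2, a neighbour of MRPL28 there, had a log2 ratio of WT over clone 4 of 0.940. Among all 13143 genes tested, 791 were called higher in WT than in clone 4, and 227 higher in WT than in clone 5. Whether the cytosolic shares exceeded this background was not tested. For members the order of the medians was the other way, with 0.072 against clone 4 and 0.12 against clone 5. The difference between the lists was not tested. WT 1 exceeded WT 2 in the cytosolic list too, with a median of 0.095. The 87 cytosolic genes listed made up 1.17% (WT 1), 1.14% (WT 2), 0.995% (clone 4) and 1.08% (clone 5) of all counts. Whether all their reads were counted is not known.

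**Figure D4:**
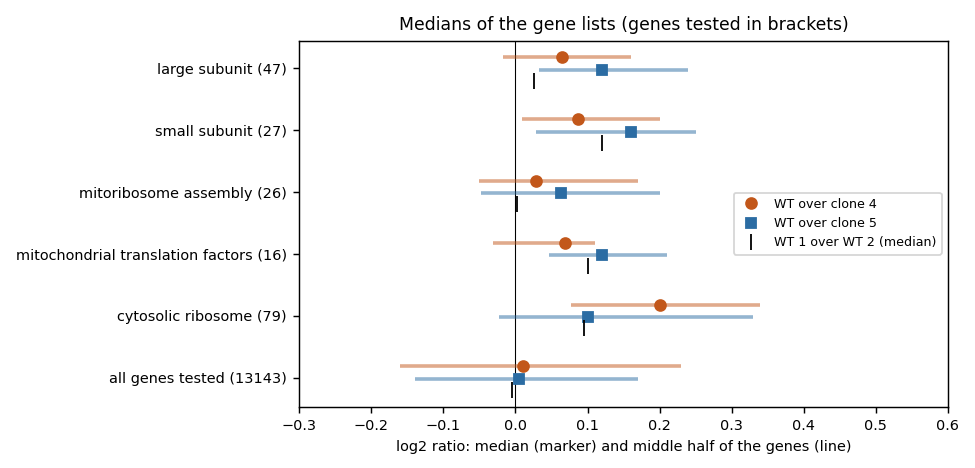
Median log2 ratio of WT over clone 4 (circles) and over clone 5 (squares) for each gene list, with lines from the lower to the upper quartile of its genes and a tick at the median of WT 1 over WT 2. Medians of both subunits lie right of 0 for both clones (0.065 to 0.16), and the tick of the small subunit lies at 0.12.

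Levels within a subunit differed far more than any member differed between libraries. Levels were divided by the merged exon length of each gene in GENCODE, as CPM per kb. The annotation used for counting was not given, so these lengths need not match what was counted. The plan had allowed comparison between genes only if that annotation was given, so ranks and spreads are approximate. MRPS27, for example, had 7.44 CPM per kb by merged exons and 52.4 by canonical transcript length. The median was 15.1 CPM per kb for large-subunit genes and 12.5 for small-subunit genes. Genes at the 90th percentile exceeded those at the 10th percentile 10.8-fold in the large and 11.7-fold in the small subunit, and 4.45-fold and 7.29-fold by canonical transcript length. MRPS35 was highest, at 162 to 197 CPM per kb in the 4 libraries, followed by MRPL3, counterpart of bacterial L3, at 111 to 119 CPM per kb. MRPS16 followed at 71.4 to 78.0 CPM per kb, and MRPL15, counterpart of bacterial L15, at 62.1 to 73.6 CPM per kb. The ranges of MRPS16 and MRPL15 overlapped, and those of MRPS35, MRPL3 and MRPS16 did not. MRPL47 (62.4 CPM per kb on average) and MRPL41 (53.4) came next in the large subunit, and MRPS10 (43.4) and MRPS2 (36.0) in the small subunit.

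At the low end, MRPL54 had 1.90 to 2.69 CPM per kb and MRPS18C 1.23 to 1.95 CPM per kb. MRPS22 and MRPS25 were also low by merged exons, at 1.27 and 2.86 CPM per kb on average, but their merged exons span 16385 and 18309 bases, far beyond the canonical transcript of 1205 and 4572 bases. By canonical length MRPS22 had 17.2 CPM per kb, and the lowest members were MRPL54 (3.65), MRPS18C (4.72), MRPS33 and MRPS11. By that length the medians were 27.2 CPM per kb for the large and 21.3 for the small subunit, and the same 3 genes, MRPS35, MRPL3 and MRPS16, were highest. The order below them changed, with MRPL13 (79.4 CPM per kb) next after MRPL3 in the large subunit, and MRPS7 (64.4) and MRPS12 (63.8) next after MRPS16 in the small subunit.

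**Figure D5:**
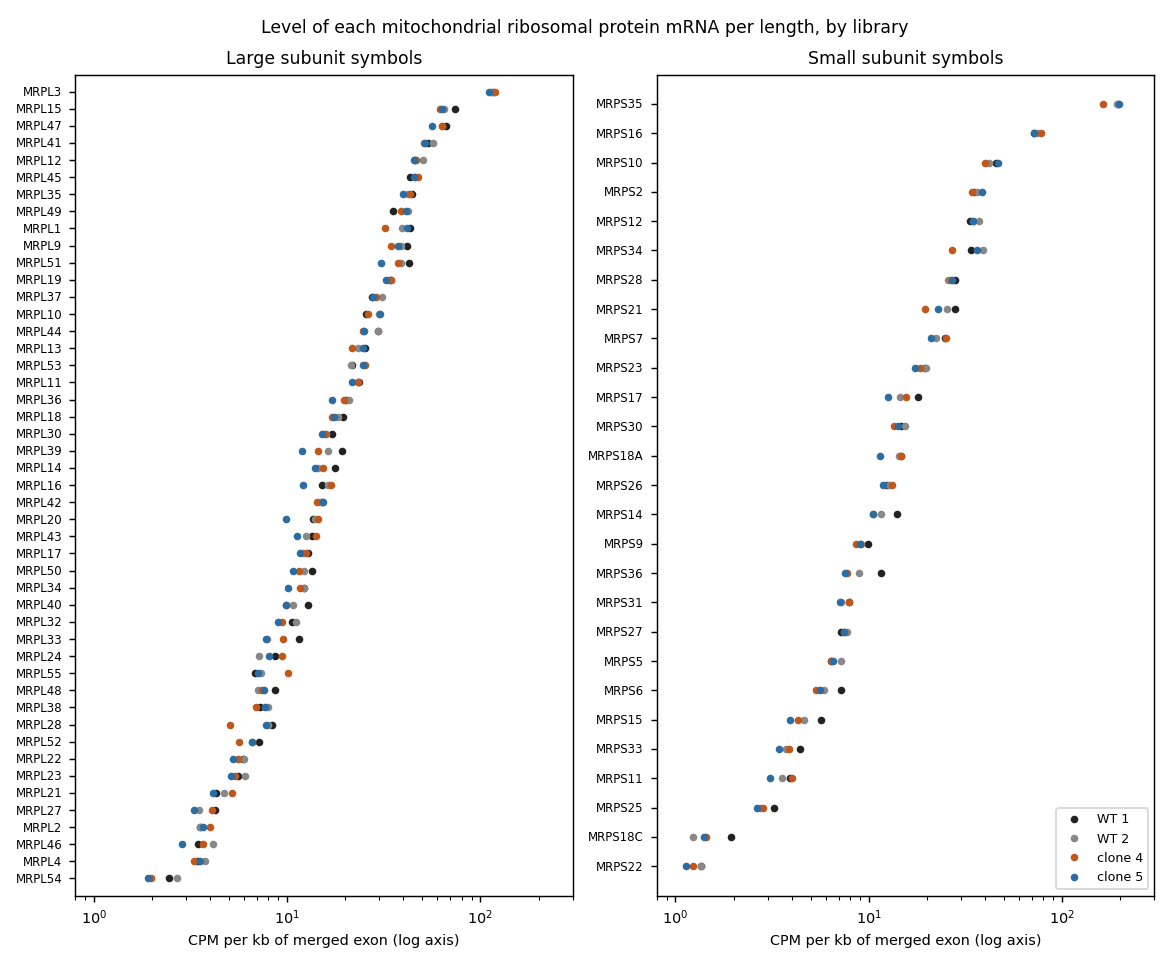
Level of each member tested in CPM per kb of merged exon (log axis), with 1 point a library, by subunit. MRPS35 (162 to 197) and MRPL3 (111 to 119) are highest, MRPS22 and MRPS18C are lowest, and the 4 libraries of a gene lie close together beside the spread over genes.

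The MRPS18 paralogs descend from 1 bacterial protein, S18. MRPS18C remains at its place in the small subunit, MRPS18B sits elsewhere in the small subunit, and MRPS18A was placed in the large subunit by later structures, as was MRPS30. MRPS18A had 20.4 CPM (WT 1), 19.9 CPM (WT 2), 20.3 CPM (clone 4) and 16 CPM (clone 5), so that clone 5 alone was low. Its log2 ratio of WT over clone 5 was 0.34 (SE 0.15, edgeR adjusted p = 0.307). MRPS18C had 9.48 CPM (WT 1), 5.97 CPM (WT 2), 6.99 CPM (clone 4) and 6.83 CPM (clone 5), and WT 2 was the lowest library. Its log2 ratio of WT over NOCT-KO was 0.16 (SE 0.27, edgeR adjusted p = 0.987). MRPS18A shares 50.9% of its exon bases with RSPH9 and MRPS18C 40.2% with ABRAXAS1, both on the opposite strand. MRPS30 had 91.0 CPM (WT 1), 95.0 CPM (WT 2), 83.6 CPM (clone 4) and 86.9 CPM (clone 5), with both clones below WT and a log2 ratio of 0.13 (SE 0.092, edgeR adjusted p = 0.971). With MRPS18A and MRPS30 counted in the large subunit and MRPS36 in neither, the medians of WT over NOCT-KO were 0.11 in both subunits.

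MRPS18B was listed at 0 counts in all 4 libraries. A floor of 3 counts a library allows 0.0715 to 0.0814 CPM before TMM scaling, if counts are independent. If 2 counts stand for 1 fragment, this floor is higher. MRPS24 had 6 counts (WT 1), 2 counts (WT 2), 0 counts (clone 4) and 0 counts (clone 5). Both proteins are parts of the small subunit, and neither gene could be compared between the groups. An entry of 0 in this table need not mean that the mRNA was absent, since the read counting is described only in part.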

How the data were processed

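Poly-A+ RNA was sequenced on an Illumina HiSeq 2000. The deposited table holds raw, unnormalized counts of reads for each gene in the 4 libraries. Mapping was to hg19, and TopHat2 and HTSeq are named in the submitters' processing notes. For versions, annotation, strand setting and kit, no statement was given in the sources used. How reads over 2 genes were counted is not stated either. Genes that overlap, also on opposite strands, may therefore share or lose counts. Of nonzero counts, 99.1% to 99.2% a library were even, so 2 counts may stand for 1 fragment. Of 23368 lines, 28 show dates instead of symbols and were left out (0.261% to 0.286% of counts). 0 columns were left aside.

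Genes were filtered by edgeR's filterByExpr (minimum count 10, minimum total 15), scaled by TMM and tested with its quasi-likelihood method, adjusted after Benjamini-Hochberg over 13143 genes at 0.05. WT was tested against NOCT-KO with 2 residual degrees of freedom. Each clone, and the clones against each other, were tested with 3 groups in the model, which leaves 1 residual degree of freedom. The biological coefficient of variation was 19.7% and 8.33%. R 4.3.3, edgeR 4.0.16, limma 3.58.1, DESeq2 1.42.0, Python 3.11.15, pandas 2.3.3, numpy 2.4.6 and matplotlib 3.10.9 were used. Symbols were matched to GENCODE lifted to hg19 as given (19556) or through a RefSeq synonym (1900), and 1884 were not matched; all 77 members were. Neighbours were tested genes with a start within 5 Mb.

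The members, the context lists and the tests were chosen with earlier results of these data known. Members were named by a rule: in each comparison the 4 with the smallest p in each direction, the 4 highest and lowest by level in each subunit, those below the filter, the MRPS18 paralogs, MRPS30 and MRPS36, of which the text gives a part. MRPL2 was picked after its values were seen, and so were the called genes of the context lists and SLIRP for clone 5. In simulated data edgeR recovered 6.25%, 52.2% and 88.1% of genes changed by log2 0.5, 1 and 2 for WT over NOCT-KO (12981 genes). For WT over clone 4 it recovered 37.7%, 78.7% and 93.8% (13007 genes). Simulated counts varied by the trend of spread with level, not by the spread of each gene. In the real data the pooled test called 0 of 13143 genes, with log2 ratios from -4.87 to 7.05. Changes of the size seen in the members are mostly below what the pooled test recovered in simulation.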

Additional observations from a re-analysis of the deposited data

Results flagged for a closer look

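Both genes called between the knockout clones differed in their ratio to WT. MRPL20 was higher in clone 4 than in clone 5 by a log2 ratio of 0.54 (edgeR adjusted p = 0.0218), being close to WT in clone 4 and lower in clone 5. MRPL28 was lower in clone 4 by a log2 ratio of -0.62 (edgeR adjusted p = 0.0249), and the median of its 132 neighbours within 5 Mb was -0.60 in the same comparison, against 0.037 for the 59 neighbours of MRPL20. The part of the neighbours in these differences was not tested.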

How the results depend on the processing

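Medians kept their direction under every alternative run. Leaving out 1 library gave large-subunit medians of 0.058 to 0.13 and small-subunit medians of 0.059 to 0.16, and 0 to 2 members called for WT over NOCT-KO, where the 2 were MRPL28 and MRPS21 without clone 5. For WT over clone 4, 0 members were called with no filter, 6 with halved counts and 1 (MRPL28) with DESeq2. For WT over clone 5, 2 were called with halved counts. Between the clones, 0 were called with no filter, 5 with halved counts and 0 with DESeq2. The shares of all genes called under these settings are not given here, so these counts cannot be set against a background. Canonical length, centring on neighbours and leaving out chromosome 16 were chosen after seeing the data. By canonical length, levels were 27.2 and 21.3 CPM per kb. With 1 library left out, log2 WT over NOCT-KO ran from -0.52 to 0.013 for MRPL55 (above 0 without clone 4), from -0.017 to 0.33 for MRPS18A (below 0 without clone 5) and from -0.21 to 0.46 for MRPS18C (below 0 without WT 1). Over the named genes, 182 values kept their direction and call, 14 lost a call, 8 gained one and 3 changed sign. The causes were not tested. Without clone 5, WT over clone 4 keeps 1 residual degree of freedom and called MRPL28 and MRPS21 but not MRPL1, and without clone 4, WT over clone 5 called 0 members. With a WT library left out, the tests by clone have no residual degrees of freedom and were not run. No paired analysis was possible because the groups share no replicate numbers. Of the members tested, MRPL54 had the fewest counts, at 102 (WT 1), 110 (WT 2), 70 (clone 4) and 78 (clone 5). MRPS18C had 400, 248, 252 and 284 counts in the same order. The effect of depth on either was not tested.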

Other observations

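Zero counts were frequent near MRPS18B. Of 61 protein-coding genes with a start within 1 Mb of it, 41 (67.2%) were at 0 in all 4 libraries, against 281 of 921 (30.5%) on the rest of chromosome 6 and 26% of all matched protein-coding genes. MRPS24 shares 606 exon bases with the joined gene URGCP-MRPS24. Of 110 genes that are the downstream part of such a joined gene, 65 (59.1%) had under 10 counts in every library, against 36 upstream partners (32.7%) and 33.8% of all protein-coding genes. GTPBP6, an assembly factor, was also at 0 in all 4 libraries.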
